A study of Mus musculus with 8 samples.

Results

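Interferon-stimulated genes are the genes that cells switch on when type I or type II interferon reaches its receptor, and 35 of them were followed in mouse testis after antibody blockade of PD-L1. They were chosen by name from a list of transcription factors, GTPases, chemokines, RNA sensors and antiviral effectors, and each symbol was found in 1 row of a deposited table of 57690 rows. Bulk RNA had been sequenced from the testes of male C57BL/6 mice aged 8 weeks. The treated group received 2 intraperitoneal injections of 200 µg anti-PD-L1, the control group received the same number and dose of an IgG2b isotype antibody, and testes were collected 7 days later. PD-L1 is the ligand of the inhibitory T cell receptor PD-1. Each group held 4 libraries, named here IgG replicates 1 to 4 and anti-PD-L1 replicates 1 to 4. The labels do not say whether each library is a different mouse, nor do they name the antibody clones, so p-values measure the spread between these libraries, which may be technical.

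Type I interferons signal through the receptor chains IFNAR1 and IFNAR2 to a complex of STAT proteins and IRF9 that binds interferon-stimulated response elements (ISREs). Type II interferon, IFN-γ, signals through IFNGR1 and IFNGR2 to STAT dimers that bind gamma-activated sites (GAS). IFN-γ comes mainly from T cells and natural killer cells, which PD-1 restrains, and it induces CXCL9, CXCL10, guanylate-binding proteins, immunity-related GTPases and MHC class II. In the testis, germ cells develop behind the blood-testis barrier in an immune-privileged setting, and macrophages lie in the interstitium.

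Promoters of many interferon-stimulated genes are known to carry ISREs or GAS, and both were searched for here. RefSeq promoter windows for GRCm38.p6, the assembly also called mm10, run from 250 bases before to 50 bases after a transcription start, and 26 of the 35 symbols had one. The core ISRE letters GAAANNGAAA, searched on both strands, were found in 17 of those 26 genes (65.4%) and in 3.99% of all 27025 genes with a window. The core GAS letters TTCNNNGAA, which read the same on both strands, were found in 8 of 26 (30.8%) and in 9.55% of all genes. The 2 motifs can overlap, as in Bst2. A match describes the letters in the window and does not show binding. The following stretches are shown because they set genes at very different levels in testis beside each other with the same element, given in capitals, 5′ to 3′ in the direction of the gene.
Bst2 at chr8:71537572-71537617, minus strand: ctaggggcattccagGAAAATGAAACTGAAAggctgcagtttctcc
Stat2 at chr10:128270261-128270300, plus strand: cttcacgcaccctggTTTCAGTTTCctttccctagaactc
Isg15 at chr4:156200860-156200911, minus strand: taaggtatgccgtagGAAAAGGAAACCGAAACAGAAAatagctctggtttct
Ifit3 at chr19:34583358-34583431, plus strand: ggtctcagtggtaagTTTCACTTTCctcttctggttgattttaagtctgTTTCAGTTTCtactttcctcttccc
Ifit1 at chr19:34640770-34640828, plus strand: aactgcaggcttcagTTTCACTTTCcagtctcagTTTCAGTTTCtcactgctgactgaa
Cxcl10 at chr5:92349078-92349117, minus strand: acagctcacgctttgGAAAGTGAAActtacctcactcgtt
Oas3 at chr5:120777710-120777749, minus strand: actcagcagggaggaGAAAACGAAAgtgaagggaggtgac
A further pair of stretches shows the core GAS letters in capitals, in genes that answer to IFN-γ.
Irf1 at chr11:53769909-53769947, plus strand: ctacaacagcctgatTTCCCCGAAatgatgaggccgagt
Gbp7 at chr3:142530215-142530272, plus strand: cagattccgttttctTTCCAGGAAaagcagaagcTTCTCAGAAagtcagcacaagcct

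The interferon-stimulated genes were expressed at low levels, and most sat below 1 TPM. TPM divides a gene's reads by its length and sets the sum of each library to the same total, so that levels can be compared between genes, while read depth is unknown and no counting intervals can be given. All 35 genes had a mean above 0 TPM over the 8 libraries, 32 reached 0.1 TPM, 15 reached 1 TPM and 2 reached 5 TPM. Among 21951 protein-coding genes of the table, 64.4% reached 1 TPM and 47.5% reached 5 TPM, against 42.9% and 5.71% of the interferon-stimulated genes. Ifi27, an interferon-induced gene of a small membrane protein, was the most abundant at a mean of 25.8 TPM, and Bst2, which encodes tetherin, a membrane protein that holds budding virions, followed at 10.9 TPM. The remaining 33 genes ranged from 3.38 TPM for Oasl2 down to 0.0413 TPM for Oas3. Levels of genes with and without a core ISRE overlapped. The 17 genes with a core ISRE ranged from 0.0413 to 10.9 TPM with a median of 0.843 TPM, and 9 genes with a window but no match ranged from 0.0875 to 3.38 TPM with a median of 2.12 TPM.

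No interferon-stimulated gene changed by the test across all genes. With limma on log2(TPM + 1), fitted to the 20343 genes averaging 1 TPM or more, 0 of the 15 interferon-stimulated genes that passed this filter, out of 35, had an adjusted p under 0.05 after Benjamini-Hochberg adjustment, as did 0% of all genes tested. Their adjusted p ranged from 0.657 to 0.999. An unadjusted p under 0.05 was reached by 1 of the 15, Xaf1, and by 1063 of all genes (5.23%). The 15 differences split into 8 higher and 7 lower after anti-PD-L1, with a median log2 difference of 0.01 beside 0.03 over all genes, of which 58.3% were higher. The differences ran from -0.57 to 0.35, and the median half-width of their 95% confidence intervals was 0.46. The other 20 genes fell below the filter and were not tested in this fit. In bulk RNA a lower level can come from fewer cells of a type or from less RNA per cell, and these cannot be told apart.

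**Figure D1:**
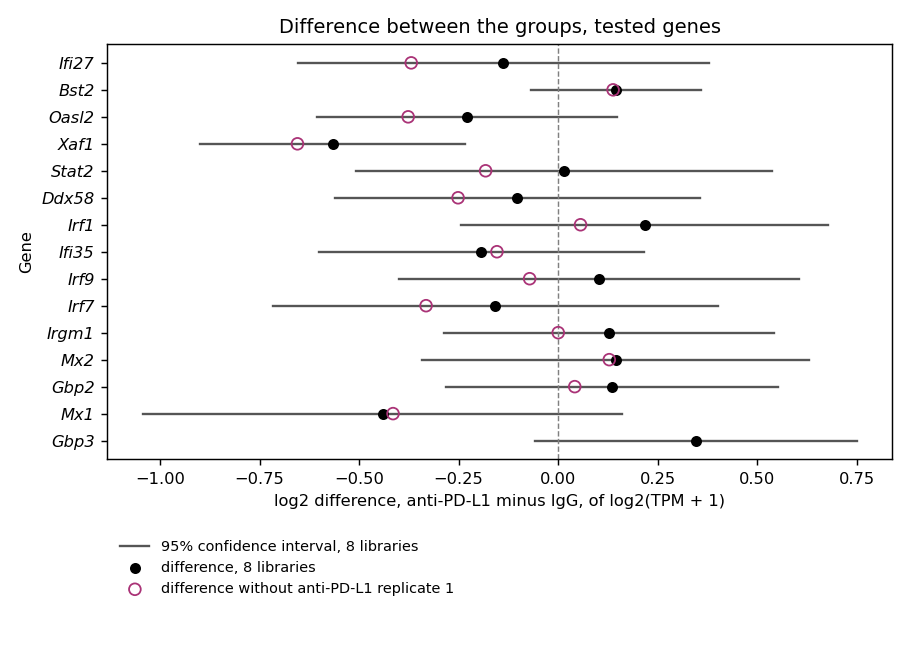
Each filled point is the log2 difference of log2(TPM + 1), anti-PD-L1 minus IgG, for 1 of the 15 tested genes, with its 95% confidence interval from limma over 8 libraries as a line; open circles give the difference without anti-PD-L1 replicate 1, where the gene still passed the filter. Only the interval of Xaf1 lies entirely to 1 side of 0, and 12 of 14 open circles lie to the left of their filled points. That library held the highest value for 8 of the 15 genes, so leaving it out lowers their anti-PD-L1 means by construction.

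Among the libraries of the treated group, 1 library carried more interferon-stimulated transcripts than any other. Anti-PD-L1 replicate 1 held the highest value of the 8 libraries for 21 of the 35 genes, while each other library held the highest value for 0 to 3 of them. Among rows with a mean of 0.1 to 1 TPM, 28.9% were highest in that library, and among all genes tested 20.9%. It held 17.8 TPM summed over the 20 genes below the filter, against 5.54 to 10.1 TPM in the other libraries, and 85.4 TPM summed over the 15 tested genes, against 48.8 to 71.4 TPM. Its value was at least 1.5 times the mean of the other 3 anti-PD-L1 libraries for 24 of the 35 genes (68.6%). This held for 9 of the 15 tested ones, beside 14.6% of all genes tested. No such share was computed over genes below 1 TPM. Over the 35 genes the anti-PD-L1 mean was the higher one for 25 and the lower one for 10, and without that library for 15 and 20. Among all genes tested it was the higher one for 58.1%, and without that library for 49.1%. Those shares, too, leave out genes averaging below 1 TPM.

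Anti-PD-L1 replicate 1 and IgG replicate 4 also stood apart from the rest in how many rows of the table had a value. They listed 31322 and 31572 rows above 0, where the other 6 libraries listed 29064 to 29904. Among protein-coding genes with a mean from 0.1 to 1 TPM, 26.2% were highest in anti-PD-L1 replicate 1 and 25.4% in IgG replicate 4. IgG replicate 4 held the highest value for 3 of the 35 interferon-stimulated genes. Without both libraries, the anti-PD-L1 mean was higher for 17 genes and lower for 18. The median log2 difference of the tested genes was then -0.13, beside 0.04 over all genes, and 0 of them passed an adjusted p of 0.05 in limma.

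**Figure D2:**
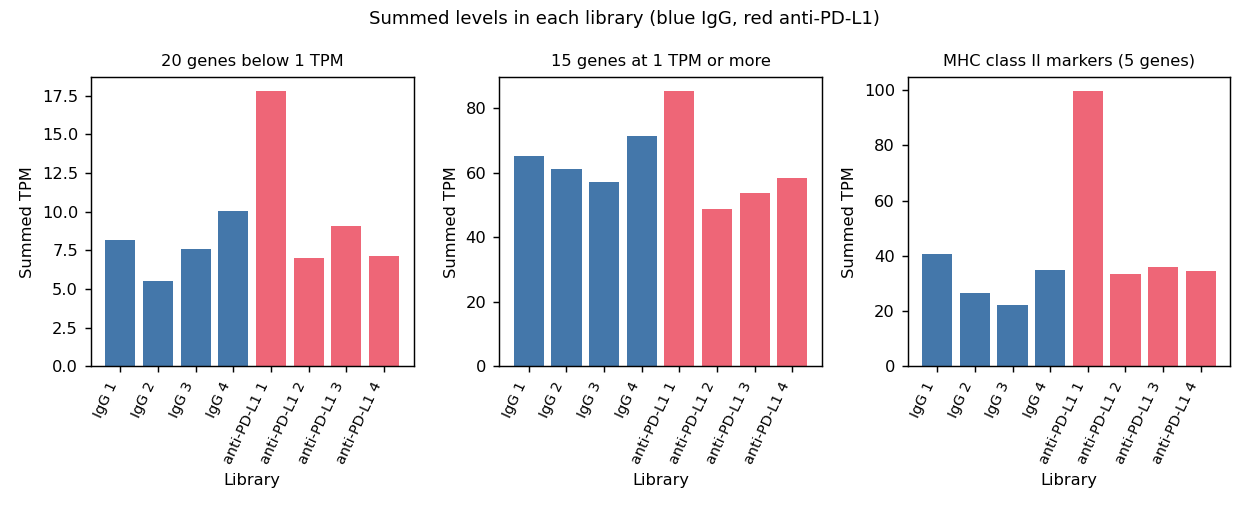
Bars give the summed TPM in each of the 8 libraries for the 20 interferon-stimulated genes below a mean of 1 TPM, for the 15 at or above it, and for 5 MHC class II markers. In each panel the tallest bar is anti-PD-L1 replicate 1, at 17.8, 85.4 and 99.8 TPM.

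Summed markers of several cell types were highest in that library, among them MHC class II genes, which IFN-γ also induces. Of all genes tested, 20.9% were highest there. The 5 MHC class II genes Cd74, H2-Ab1, H2-Aa, H2-Eb1 and their activator Ciita were all highest there, with a summed level of 99.8 TPM. The sum was 22.3 to 40.7 TPM in the IgG libraries and 33.3 to 36.1 TPM in the other anti-PD-L1 libraries. Of 14 macrophage markers 7 were highest there, and their summed level was 109.5 TPM beside 77.3 to 96.8 TPM in the IgG group and 83.9 to 91.0 TPM in anti-PD-L1 replicates 2 to 4. For 14 markers of T and natural killer cells the sum was 8.78 TPM, beside 5.58 to 7.68 TPM in the IgG group and 5.19 to 5.35 TPM in the other anti-PD-L1 libraries, and 7 of the 14 were highest there. Of the 14, 9 had higher and 4 had lower anti-PD-L1 means. Cd2, a T cell surface marker below the filter, was among the lower ones and was lowest in anti-PD-L1 replicate 1. It was at 0.85 to 1.27 TPM in the IgG group and at 0.46 to 0.75 TPM in the treated group. It was the 1 marker of the 14 whose groups did not overlap. Among all genes tested, 1.23% did not overlap in this direction and 2.99% in either. Of 8 B and plasma cell markers 7 had lower anti-PD-L1 means, with sums of 8.01 to 11.0 and 7.07 to 10.2 TPM. Of the T and natural killer cell markers Ncr1 was listed at 0 in all 8 libraries and 1 reached a mean of 1 TPM. Endothelial markers also had their highest sum in anti-PD-L1 replicate 1, 52.5 TPM, though 1 of the 8 genes was highest there. The sum was 46.1 to 48.9 TPM in the IgG group and 37.4 to 44.7 TPM in the other anti-PD-L1 libraries. Neutrophil markers summed to 0.04 to 1.15 TPM in the IgG group. In the treated group they summed to 0.17 to 1.54 TPM, highest in anti-PD-L1 replicate 1. Epididymal markers stayed at or below 0.31 TPM in sum. Adipocyte markers summed to 101 TPM in IgG replicate 1, to 10.5 to 34.8 TPM in the other IgG libraries and to 7.52 to 13.8 TPM in the treated group. Markers of elongating spermatids had lower anti-PD-L1 means in 6 of 6 genes, with a median log2 difference of -0.18 and 0 past an adjusted p of 0.05 in limma. The part of these cells in the interferon-stimulated values was not tested.

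**Figure D3:**
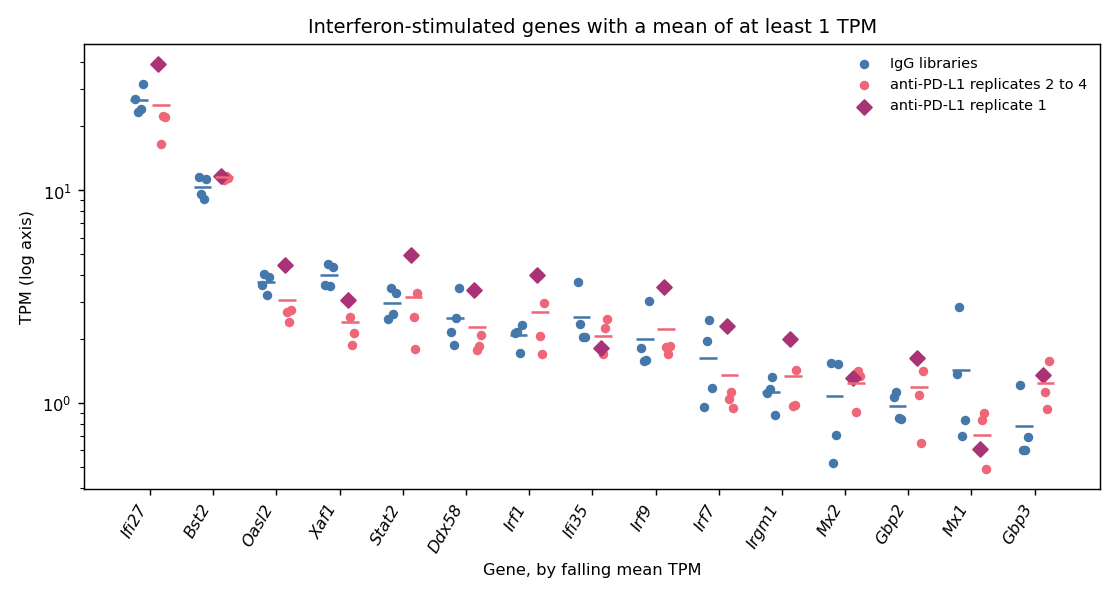
TPM on a log axis for the 15 interferon-stimulated genes averaging 1 TPM or more; points are libraries, short lines are group means, and the diamond is anti-PD-L1 replicate 1. The diamond is the highest point for 8 of the 15 genes, and only Xaf1 has no overlap between the groups.

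The transcription factors that carry the interferon signal were measured in every library at 0.95 to 4.99 TPM, and none of the 4 changed by the test. Stat2, the STAT protein particular to the type I complex, was at 2.48, 3.48, 2.62 and 3.31 TPM in IgG replicates 1 to 4 and at 4.99, 2.53, 1.79 and 3.28 TPM in anti-PD-L1 replicates 1 to 4. The treated group held both the highest and the lowest value. Its log2 difference was 0.01 with a 95% interval from -0.51 to 0.54, and -0.18 without anti-PD-L1 replicate 1. Irf9, which gives that complex its DNA contact, was at 1.82, 1.57, 1.59 and 3.01 TPM in the IgG group and at 3.53, 1.84, 1.71 and 1.86 TPM in the treated group. Its highest values in both groups were in the 2 libraries that stood apart. The log2 difference was 0.10 (-0.40 to 0.60), and -0.07 without anti-PD-L1 replicate 1. Irf1, an early target of IFN-γ with the GAS letters shown above, was at 2.14, 2.16, 1.72 and 2.32 TPM and at 4.0, 2.06, 1.70 and 2.96 TPM. Of the treated libraries replicates 1 and 4 lay above all IgG libraries and the other 2 lay within or just below them. The difference was 0.22 (-0.24 to 0.68), and 0.06 without anti-PD-L1 replicate 1. Irf7, which amplifies type I interferon production, was at 0.96, 1.96, 2.45 and 1.18 TPM and at 2.31, 1.05, 1.13 and 0.95 TPM. The groups spanned nearly the same range, and the difference was -0.16 (-0.72 to 0.40), or -0.33 without anti-PD-L1 replicate 1 and -0.02 when IgG replicate 3 was left out.

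Guanylate-binding proteins, GTPases that attack the vacuoles of intracellular pathogens and are strongly induced by IFN-γ, had higher anti-PD-L1 means in 6 of 6 genes, beside 58.1% of all genes tested, and in 4 of 6 without anti-PD-L1 replicate 1, where Gbp5 and Gbp7 turned (49.1% of all genes). Those shares cover only genes averaging 1 TPM or more. Neither of the 2 that passed this filter changed by the test. Both passed it through the anti-PD-L1 group. The IgG and anti-PD-L1 means were 0.7775 and 1.25 TPM for Gbp3, and 0.9725 and 1.195 TPM for Gbp2. The mean of Gbp3 over all libraries, 1.01 TPM, lay close to the filter. Gbp3 was at 1.22, 0.60, 0.60 and 0.69 TPM in the IgG group and at 1.35, 1.13, 0.94 and 1.58 TPM in the treated group. IgG replicate 1 lay among the treated libraries, and the other IgG libraries lay below all of them. Its log2 difference of 0.35 (SE 0.18, n = 4 a group) had an unadjusted p of 0.0844 (adjusted p = 0.995 in limma), and with a pseudocount of 0.1 the difference was 0.65. Gbp2 was at 1.07, 1.13, 0.85 and 0.84 TPM and at 1.63, 1.09, 0.65 and 1.41 TPM, so that treated libraries lay both above and below the IgG range. Its difference was 0.14 (-0.28 to 0.55), and 0.04 without anti-PD-L1 replicate 1. Gbp4, Gbp5, Gbp6 and Gbp7 had means of 0.279 to 0.621 TPM. Gbp5, which assembles inflammasomes, was at 1.14 TPM in anti-PD-L1 replicate 1 and at 0.33 to 0.63 TPM in the other treated libraries, and Gbp7 was at 1.22 TPM there and at 0.25 to 0.53 TPM in the others. Reads of Gbp6 are uncertain, since 70.7% of the 50-base words of its transcripts also occur in other genes, chiefly Gm43302 and Gbp10.

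The 3 immunity-related GTPases, which act beside the guanylate-binding proteins on pathogen vacuoles, were all highest in anti-PD-L1 replicate 1. Irgm1, a regulator of the family, was at 1.12, 1.16, 1.33 and 0.88 TPM in the IgG group and at 2.01, 0.97, 0.98 and 1.43 TPM in the treated group. Its log2 difference was 0.13 (-0.29 to 0.54) in limma and 1.1e-05 without anti-PD-L1 replicate 1. Iigp1, an effector of the family, was at 0.48, 0.30, 0.52 and 0.68 TPM in the IgG group and at 2.51, 0.65, 0.75 and 0.48 TPM in the treated group. Replicate 1 was at 4.01 times the mean of the other treated libraries, which overlapped the IgG libraries. Igtp, a further member of the family, was at 0.69, 0.58, 0.61 and 0.83 TPM and at 2.10, 0.74, 0.97 and 0.65 TPM. It showed the same single high library, at 2.67 times the mean of the others. Igtp shares 11.8% of its 50-base words with Irgm2, whose exons overlap its own on the same strand.

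The chemokines that draw T cells through CXCR3 were close to the floor of the table. Cxcl10 was at 0.09, 0.20, 0.08 and 0.42 TPM in the IgG group and at 1.16, 0.27, 0.09 and 0.10 TPM in the treated group. Cxcl9 was at 0.20, 0.04, 0.10 and 0.97 TPM and at 0.85, 0.23, 0.18 and 0.22 TPM. For Cxcl9 the high libraries were IgG replicate 4 and anti-PD-L1 replicate 1, 1 in each group, and for Cxcl10 the same libraries ranked highest in their groups. Cxcl11, which GENCODE lists as a polymorphic pseudogene in this strain's genome, was listed at 0 in 5 libraries and reached at most 0.25 TPM, in anti-PD-L1 replicate 1. All 3 groups of values overlapped between treatments.

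**Figure D4:**
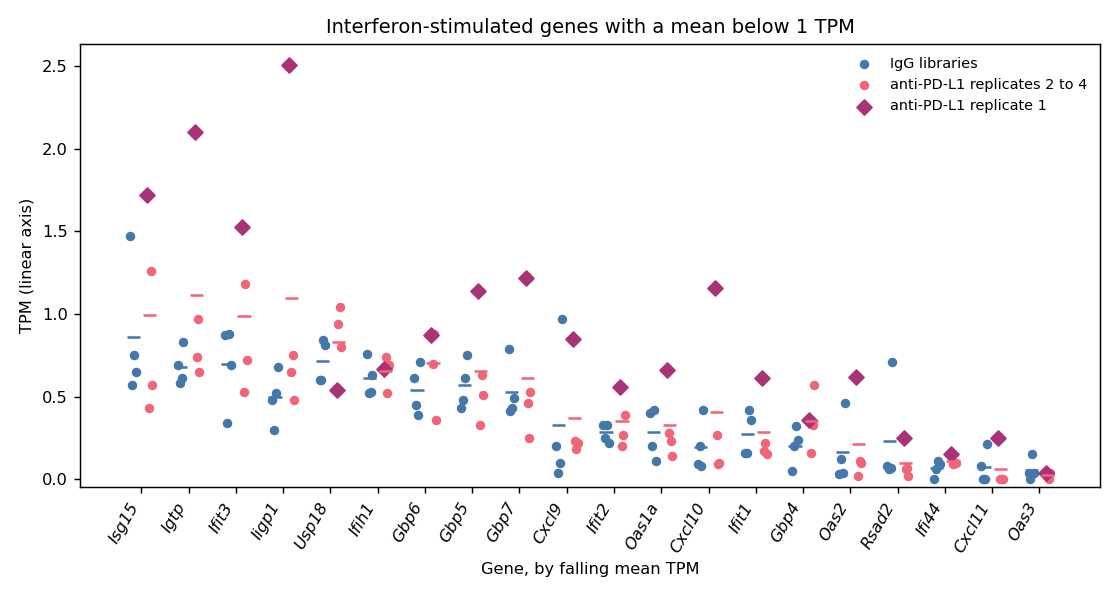
TPM on a linear axis for the 20 interferon-stimulated genes with a mean below 1 TPM; points are libraries, short lines are group means, and the diamond is anti-PD-L1 replicate 1. The diamond is the highest point for 13 of the 20 genes, and no gene has separate groups.

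Of the 2 cytosolic RNA sensors that start the type I response, Ddx58 was tested and did not pass, and Ifih1 fell below the filter. Ddx58, the gene of RIG-I, was at 2.15, 1.88, 2.52 and 3.47 TPM in the IgG group and at 3.39, 1.77, 1.86 and 2.09 TPM in the treated group. IgG replicate 4 and anti-PD-L1 replicate 1 were again the high libraries. Its log2 difference was -0.10 (-0.56 to 0.35), and 0.02 without IgG replicate 4. Ifih1, the gene of MDA5, ranged only from 0.52 to 0.76 TPM over the 8 libraries, with means of 0.610 ± 0.112 and 0.655 ± 0.0947 TPM (SD, n = 4).

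The IFIT genes, which bind viral RNA ends and are among the most inducible by type I interferon, averaged below 1 TPM in both groups. Ifit3 was at 0.87, 0.34, 0.88 and 0.69 TPM in the IgG group and at 1.53, 0.53, 1.18 and 0.72 TPM in the treated group. Ifit1 was at 0.16, 0.16, 0.42 and 0.36 TPM and at 0.61, 0.17, 0.22 and 0.15 TPM, and Ifit2 ranged from 0.20 to 0.56 TPM. In each of the 3 genes anti-PD-L1 replicate 1 was highest and the other treated libraries overlapped the IgG range. Of the 50-base words of Ifit3, 51.2% also occur in other genes, mainly its copy Ifit3b, so its level is uncertain.

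Isg15, a ubiquitin-like protein joined to other proteins after interferon, was at 1.47, 0.57, 0.75 and 0.65 TPM in the IgG group and at 1.72, 0.43, 1.26 and 0.57 TPM in the treated group. High and low libraries were present in both groups. Usp18, the protease that removes ISG15 and damps the type I receptor, went the other way in anti-PD-L1 replicate 1: it was at 0.60, 0.60, 0.84 and 0.81 TPM in the IgG group and at 0.54, 0.94, 1.04 and 0.80 TPM in the treated group. The lowest of all 8 values was the one in anti-PD-L1 replicate 1.

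The OAS family makes the 2'-5' oligoadenylates that activate RNase L, and of its members here only Oasl2, an OAS-like gene, passed the filter. Oasl2 was at 3.59, 4.06, 3.22 and 3.91 TPM in the IgG group and at 4.44, 2.69, 2.41 and 2.73 TPM in the treated group. Anti-PD-L1 replicate 1 was the highest of all libraries and the other treated libraries lay below every IgG library. Its log2 difference was -0.23 (-0.61 to 0.15) with 8 libraries. Without anti-PD-L1 replicate 1 it was -0.38, with an unadjusted p of 0.0185 (adjusted p = 0.710 in limma). Leaving out the highest library lowers the treated mean by construction, so this p describes the remaining libraries only. Oas2 was at 0.62 TPM in anti-PD-L1 replicate 1, at 0.46 TPM in IgG replicate 4 and at 0.02 to 0.12 TPM in the other 6 libraries. Oas1a ranged from 0.11 to 0.66 TPM and shares 57.6% of its 50-base words with other genes, chiefly Oas1g, and Oas3 was at or below 0.15 TPM.

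Of 4 other antiviral effectors, Bst2, Mx1 and Mx2 were tested and none passed, and Rsad2 fell below the filter. Bst2 was at 11.5, 9.58, 9.07 and 11.3 TPM in the IgG group and at 11.7, 11.2, 11.7 and 11.5 TPM in the treated group. The treated libraries lay close together, while IgG replicates 2 and 3 lay below them and the other IgG libraries among them. The log2 difference was 0.15 (-0.07 to 0.36), with an unadjusted p of 0.156 in limma, and 0.14 without anti-PD-L1 replicate 1. Mx1, a dynamin-like GTPase gene that carries a disabling deletion in C57BL/6 mice, was at 1.37, 2.84, 0.70 and 0.83 TPM and at 0.61, 0.83, 0.90 and 0.49 TPM. IgG replicates 1 and 2 were the high libraries, and the difference of -0.44 (-1.04 to 0.16) had an unadjusted p of 0.131 in limma, and was -0.76 with a pseudocount of 0.1. Mx1 passed the filter through the IgG group, with means of 1.44 and 0.708 TPM. Without IgG replicate 2 its mean was 0.819 TPM, which leaves it out of the test, and the difference was -0.20. Mx2, listed by GENCODE as a polymorphic pseudogene, was at 1.55, 0.52, 0.71 and 1.53 TPM and at 1.31, 0.91, 1.42 and 1.34 TPM, a difference of 0.14 (-0.34 to 0.63), or 0.30 with a pseudocount of 0.1 and 0.01 without IgG replicate 2. Rsad2, the gene of viperin, was at 0.71 TPM in IgG replicate 4, at 0.25 TPM in anti-PD-L1 replicate 1 and at 0.02 to 0.08 TPM in the other libraries.

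Xaf1 was the one interferon-stimulated gene whose groups did not overlap. It encodes a partner of the caspase inhibitor XIAP and lies on chromosome 11 of mm10, 72301629 to 72313733, as a protein-coding gene. It was at 3.61, 4.52, 3.55 and 4.37 TPM in the IgG group and at 3.05, 2.54, 1.88 and 2.13 TPM in the treated group. Every treated library lay below every IgG library. The group means were 4.01 ± 0.504 and 2.40 ± 0.512 TPM (SD, n = 4), and the log2 difference was -0.57 (SE 0.15, 95% interval -0.90 to -0.23). Its unadjusted p was 0.00402 and its adjusted p was 0.657 in limma with Benjamini-Hochberg adjustment, the 123rd smallest p of 20343. Non-overlap in this direction held for 1 of 15 interferon-stimulated genes and for 1.23% of all genes tested, and in either direction for 2.99%. An unadjusted p under 0.05 with a lower value held for 2.22% of all genes. Over 16 alternative settings the difference ran from -0.73 to -0.49 and the adjusted p in limma from 0.201 to 1.00. The difference was -0.65 without anti-PD-L1 replicate 1, the library in which most of the other genes were high, and in that library Xaf1 was also the highest of the treated group. Its promoter window held neither set of letters searched.

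Ifi27, Ifi35 and Ifi44 completed the set. Ifi27 was at 27.0, 23.4, 24.2 and 31.8 TPM in the IgG group and at 39.3, 16.5, 22.5 and 22.2 TPM in the treated group. The highest library was anti-PD-L1 replicate 1, and the other treated libraries lay below all IgG libraries. The log2 difference was -0.14 (-0.65 to 0.38) over 8 libraries. It was -0.37 without anti-PD-L1 replicate 1, with an unadjusted p of 0.0315 (adjusted p = 0.771 in limma), and 0.03 without anti-PD-L1 replicate 2. As for Oasl2, leaving out the highest library lowers the treated mean by construction. Without anti-PD-L1 replicate 1, 3 of the 15 genes, Xaf1, Oasl2 and Ifi27, had all treated libraries below all IgG libraries. This held for 3.06% of all genes tested. Oasl2 and Ifi27 were highest in the omitted library, so leaving it out removed their only overlapping treated value. The count therefore cannot be weighed against that share. Ifi35, which binds its partner NMI, was at 3.72, 2.36, 2.05 and 2.05 TPM and at 1.81, 1.71, 2.25 and 2.49 TPM. IgG replicate 1 was high and the rest were mixed, with a difference of -0.19 (-0.60 to 0.22), or -0.05 without IgG replicate 1. Ifi35 shares 16.8% of its exonic bases with an antisense gene, and the strand setting of the counting is not given in the sources used here. Ifi44 was at or below 0.15 TPM in every library.

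Upstream of these genes, interferon transcripts were almost absent from the table while their receptors were measured throughout. Of 9 interferon genes, 6 were listed at 0 in all 8 libraries, among them Ifnb1. Ifng, the gene of IFN-γ, was at 0.06 TPM in IgG replicate 2 and listed at 0 in the other 7 libraries. The highest value of any of the 9 was 0.24 TPM, for Ifna1 in anti-PD-L1 replicate 1. The type II receptor genes Ifngr1 and Ifngr2 had mean levels of 9.33 and 19.7 TPM in the IgG group and of 8.96 and 19.4 TPM in the treated group. Their log2 differences were -0.05 and -0.02, and each changed sign when single libraries were left out. For the type I receptor genes Ifnar1 and Ifnar2 the mean levels were 8.80 and 4.998 TPM, and 9.52 and 4.48 TPM, with differences of 0.10 and -0.13.

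Of 84 further pathway genes in the table, 39 passed the filter, and 0 of them had an adjusted p under 0.05 in limma, with 24 higher, 15 lower and 0 at an unadjusted p under 0.05. Their median log2 difference was 0.04, beside 0.03 over all genes tested, of which 58.3% were higher. That share stands beside each count of higher and lower genes below, and no list was tested as a set. Among tested kinases and STATs, 4 of 5 were higher, Jak2 by 0.11 and Tyk2 by 0.03, and among negative regulators 5 of 5 were higher, the phosphatase gene Ptpn2 by 0.11 and the ISRE-binding repressor gene Irf2 by 0.15. In the list of genes that sense nucleic acids or act just below the sensors, 5 of 6 were lower, with log2 differences of -0.24 for Tmem173, the gene of STING, and -0.17 for Irf8. IgG replicate 1 was the highest library for both, and without it the differences were -0.08 and 0.02. The remaining receptor gene named for its p, Il10rb, differed by 0.10. Of 18 tested genes among 45 further interferon-stimulated genes, 12 were higher and 6 lower. Ifitm1, a membrane restriction factor, differed by 0.47 (-0.12 to 1.07) and Herc6, the mouse ISG15 ligase, by 0.12. Of those 45 genes, which do not include the 35 above, 27 were highest in anti-PD-L1 replicate 1. That library was highest for 20.9% of all genes tested and for 28.9% of rows with a mean of 0.1 to 1 TPM.

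The spread between libraries was compared within each group. Over the 15 tested genes the median SD of log2(TPM + 1) was 0.19 in the IgG group and 0.29 in the anti-PD-L1 group, and 9 of the 15 had the larger SD in the anti-PD-L1 group. For the 20 genes below the filter the medians were 0.15 and 0.23, with the larger SD in the anti-PD-L1 group for 15 of 20. Over all 20343 genes tested the medians were 0.17 and 0.17, and 9697 genes had the larger SD in the anti-PD-L1 group. Without anti-PD-L1 replicate 1 the anti-PD-L1 medians were 0.18 for the 15 genes, 0.10 for the 20 genes and 0.14 over all genes tested. The SD was then larger in the anti-PD-L1 group for 6 of 15, 8 of 20 and 7665 of 20343 genes. The difference in spread was not tested.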

How the data were processed

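Gene expression was measured by bulk RNA sequencing in 8 testis libraries, 4 from mice given IgG2b and 4 from mice given anti-PD-L1, grouped by the sample titles. Per the labels' protocols, TRIzol extracts were cleared of DNA by DNase I and sequenced from TruSeq libraries. The deposited values are TPM per gene, 1 column a library, per the file headers. Named in the submitters' processing notes are mm10, CASAVA 1.8, HISAT2, StringTie and RSEM. Which of them made the TPM, and with what strand setting, is not given in the sources used here. The deposited gene length column was not used. TPM keeps no depth, so precision is judged from the spread between libraries. Each value is a share of its library, so it also depends on the level of the most abundant genes.

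Values were transformed to log2(TPM + 1), and the 20343 genes averaging 1 TPM or more were fitted with limma 3.58.1 in R 4.3.3, with an intensity trend and a group term, with Benjamini-Hochberg adjustment over all of them. A log2 difference is on this scale and understates the change of low genes. The fit was tested on simulated data. Positions and exon overlaps came from GENCODE M21 for mm10, shared 50-base words from its transcripts, and promoters from RefSeq for GRCm38.p6, in Python 3.11.15. Alternatives were another pseudocount, other filters, quantile and trimmed-mean scaling, array weights, no trend, a replicate block and leaving out libraries. The 35 genes, their grouping, the pathway lists and the marker lists were chosen with earlier results of these data known. All 35 genes were accounted for, with values in every library for those at 1 TPM or more, and for others where a single library stood out after their values were seen. From the other lists, interferon receptors, Ifng, Ifnb1 and the 2 tested genes with the smallest p were named. The symbol Mb21d1 of those lists was not found in the table.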

Additional observations from a re-analysis of the deposited data

Results flagged for a closer look

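In 12 of 70 groups of 4 libraries, 1 library lay so far from the other 3 that its gap passed Dixon's 95% critical value for the group's range. Chance flags about 1 in 20 such groups where values are normally distributed, which values near 0 are not. The rule was applied to the 35 genes alone, so no share over all genes can be set beside this count. Of all genes averaging 1 TPM or more, 20.9% were highest in anti-PD-L1 replicate 1. For Cxcl11 the other 3 libraries were listed at 0, and Ifi44 passed narrowly, beside values of 0.09 to 0.10 TPM. In 10 of the 12 the library was anti-PD-L1 replicate 1, and each time it lay above the others of its group. Among tested genes these were Oasl2 at 4.44 TPM, Irf9 at 3.53 TPM and Irf7 at 2.31 TPM. Among genes below 1 TPM they were Iigp1 at 2.51 TPM, Cxcl10 at 1.16 TPM, Cxcl9 at 0.85 TPM, Oas2 at 0.62 TPM, Ifit1 at 0.61 TPM, Cxcl11 at 0.25 TPM and Ifi44 at 0.15 TPM. The remaining groups were Rsad2, at 0.71 TPM in IgG replicate 4 beside 0.06 to 0.08 TPM in the other IgG libraries, and Gbp3, at 1.22 TPM in IgG replicate 1 beside 0.60 to 0.69 TPM. The genes share libraries, so these are not independent events.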

How the results depend on the processing

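Of 237 values of the tested genes under the alternatives, 225 kept their direction and 0 had an adjusted p under 0.05 in limma. Stat2 turned to -0.00064 with a pseudocount of 0.1, -0.0109 with trimmed-mean rescaling, -0.0704 with array quality weights and -0.14 without both IgG replicate 4 and anti-PD-L1 replicate 1, where Irgm1 turned to -0.0569. With 1 library left out at a time, Stat2 ranged from -0.18 to 0.19, Ddx58 from -0.25 to 0.0213, Irf9 from -0.0718 to 0.25 and Ifi27 from -0.37 to 0.0312. The count of genes past an adjusted p of 0.05 over the whole table, 0 as designed, was 1 with a pseudocount of 0.1, 5 with array quality weights, 9 without both libraries and 0 to 16 with 1 library left out, the highest without IgG replicate 4. None of these was an interferon-stimulated gene. The count of interferon-stimulated genes at an unadjusted p under 0.05, 1 as designed, was 2 without an intensity trend, 3 with array quality weights, 2 without both libraries, and 0 with a filter of 5 TPM, which leaves 2 genes. It was 1 to 3 with 1 library left out, the highest without anti-PD-L1 replicate 1. Among all genes, an unadjusted p under 0.05 in limma was reached by 5.23% as designed. The share was 4.88% without an intensity trend, 10.6% with array quality weights and 9.84% without both libraries. With a filter of 5 TPM it was 6.00%, and without anti-PD-L1 replicate 1 it was 5.93%. Of the 35 genes, 32 reached a threshold of 0.1 TPM and 2 a threshold of 5 TPM, where 15 reached 1 TPM. The cause of these changes was not tested. The replicate numbers are shared between the groups, but same-numbered libraries deviated together with correlations of -0.11, 0.10, 0.09 and -0.20 across genes, so they were not treated as pairs. The highest correlation, 0.36, was between IgG replicate 4 and anti-PD-L1 replicate 1. With a replicate block the difference of Xaf1 was -0.57 (adjusted p = 0.910 in limma) and 0 genes passed. Read depth is unknown, which limits every value below 1 TPM.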

Other observations

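Some interferon-pathway genes outside the 35 were among the more abundant in testis, at means above the 25.8 TPM of Ifi27, the highest of the 35. Isg20, Irf3 and Dhx58 were chosen here after their values were seen. Pias1, Herc6 and Ptpn2 also lay above that level, at means of 146.9, 29.05 and 25.86 TPM. Isg20, the gene of an RNA exonuclease, averaged 99.0 ± 6.13 TPM in the IgG group and 102.6 ± 8.23 TPM in the anti-PD-L1 group (SD, n = 4). Irf3, the factor that starts interferon transcription, averaged 50.2 ± 13.1 and 51.4 ± 11.9 TPM. Dhx58, the gene of LGP2 in the RIG-I family, averaged 28.9 ± 3.56 and 28.7 ± 3.25 TPM, where its relatives Ddx58 and Ifih1 lay at or below 3.47 TPM in every library. The groups overlapped for each of Isg20, Irf3 and Dhx58. Oasl1, an OAS-like gene with a mean below 1 TPM, was at 1.02, 0.82, 0.56 and 0.62 TPM in the IgG group and at 1.24, 1.33, 1.12 and 1.04 TPM in the treated group. The groups did not overlap, as for 2.99% of all genes tested, and it was picked from 45 genes. Without the filter its log2 difference was 0.32, with an unadjusted p of 0.0324 (adjusted p = 1 in limma).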
